A study of Mus musculus with 22 samples.

Results

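The genes described here are 10 genes known for their roles in the trophoblast, the lineage that builds the placenta: Cdx2, Eomes, Elf5, Tfap2c, Hand1, Gata3, Gata2, Krt8, Krt18 and Esx1. They were taken by their symbols from a table of 18487 genes, whatever their values, and followed over all 11 groups of the series. Of the 10 genes, 9 were in the table and all 9 were among the 17275 genes tested. Elf5 had no entry in the table used here and was not analysed here.

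RNA from E14 cells, a mouse embryonic stem cell line, was sequenced after oligo-dT enrichment in 22 libraries. The 10 compounds were Bromosporine, Chaetocin, CPTH2, DZNep, Garcinol, IOX1, MS023, OICR, UNC0379 and Valproate, with 2 libraries each, and the reference was NC, also with 2 libraries and the only group whose label names no compound. The comparison asks which transcripts differ in stem cells given an inhibitor of chromatin proteins. Per the study's methods the line is grown in serum with LIF, a cytokine that keeps the cells undifferentiated. All groups are the same line, so each group is a single genetic background. The labels give no dose, no exposure time and no word on whether the 2 libraries of a group came from separate cultures, so the p-values measure only the spread between these libraries. Bromosporine blocks bromodomains, which bind acetylated lysine. Valproate inhibits histone deacetylases, and Garcinol and CPTH2 inhibit acetyltransferases. DZNep inhibits S-adenosylhomocysteine hydrolase, IOX1 acts on 2-oxoglutarate oxygenases, MS023 on type I arginine methyltransferases, UNC0379 on the lysine methyltransferase SETD8 and Chaetocin on lysine methyltransferases. OICR was not named further by its label.

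In the blastocyst the outer cells become the trophectoderm, while the inner cells give rise to the embryo and, in culture, to embryonic stem cells. Active TEAD4 with its co-factor YAP switches on Cdx2 and Gata3 in the outer cells, and Cdx2, Eomes, Elf5 and Tfap2c hold trophoblast stem cells in their state. Gata2, Gata3 and Hand1 act as these cells mature into giant cells and other placental cells, Esx1 is a homeobox gene of the placental labyrinth, and Krt8 and Krt18 encode the keratin pair of the first epithelium. Embryonic stem cells as a rule keep most of these genes low, and Tfap2c, Gata2, Krt8 and Krt18 are also used outside the trophoblast.

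The 250 bases before the annotated start are shown for 3 of the genes that the results turn on, Eomes, Gata3 and Esx1, whose windows overlap no exon of a protein-coding gene. The sequences are from RefSeq (GRCm38.p6), whose promoter windows covered 8 of the 10 genes. They are written 5′ to 3′ on the strand of the gene, and capitals mark matches to the motif GCCNNNGGC, known for AP-2 proteins such as the product of Tfap2c. The Eomes window is chr9:118477939-118478188 on the plus strand, the Gata3 window chr2:9878601-9878850 on the minus strand and the Esx1 window chrX:137120327-137120576 on the minus strand. For Gata3 and Esx1, GENCODE also has transcripts that start further upstream, so that these windows, set by the RefSeq start, lie inside the gene spans given below.
Eomes: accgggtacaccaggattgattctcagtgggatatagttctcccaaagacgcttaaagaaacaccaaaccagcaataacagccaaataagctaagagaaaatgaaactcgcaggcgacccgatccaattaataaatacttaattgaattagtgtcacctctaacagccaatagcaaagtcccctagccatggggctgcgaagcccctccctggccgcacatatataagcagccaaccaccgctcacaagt
Gata3: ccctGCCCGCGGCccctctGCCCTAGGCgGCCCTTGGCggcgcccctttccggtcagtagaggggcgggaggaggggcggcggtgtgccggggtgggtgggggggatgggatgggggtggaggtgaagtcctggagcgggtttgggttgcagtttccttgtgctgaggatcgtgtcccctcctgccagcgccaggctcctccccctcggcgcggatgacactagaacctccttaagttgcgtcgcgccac
Esx1: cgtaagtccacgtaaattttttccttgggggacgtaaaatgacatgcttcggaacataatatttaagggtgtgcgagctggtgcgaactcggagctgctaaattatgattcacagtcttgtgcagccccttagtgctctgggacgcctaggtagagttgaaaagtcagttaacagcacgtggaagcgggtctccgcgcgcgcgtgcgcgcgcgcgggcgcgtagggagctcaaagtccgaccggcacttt
The Gata3 window held 3 matches to GCCNNNGGC, a motif found in 13.7% of all 32851 windows of this length, and it lies within an exon of Gm13256 on the opposite strand. The windows of Eomes and Esx1 held 0. In none of the 3 windows was TATAAA (12.4% of all windows), GATAAG (6.55%) or CATTCC (12.6%, known for TEAD proteins) found on either strand. These letters say only what is in the windows. The windows also differed in CpG dinucleotides, with 8 in that of Eomes, 19 in that of Gata3 and 24 in that of Esx1, against a median of 6 over all windows (quartiles 2 and 16).

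Values are normalised read counts, which the authors brought to a common distribution, so that the libraries summed to between 38403767 and 38419709 and do not show their sequencing depth. Calls needed an adjusted p under 0.05 (limma on log2(value + 1), Benjamini-Hochberg over all genes tested) and more than a 2-fold change. All log2 differences below are a compound minus NC on this scale, which understates the change of low genes. Pou5f1, the defining factor of the pluripotent state, lay between 25663 and 39262 in the 22 libraries, and 10 of 10 listed pluripotency markers passed the filter on low values. In such bulk RNA, fewer cells that express a gene and less RNA of it per cell cannot be told apart.

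The 9 genes fell into a high, a middle and a low set. Per kilobase of the longest transcript, the median normalised count over the 22 libraries was 1007 for Tfap2c, 211 for Krt8, 123 for Gata2, 84.5 for Esx1, 45.8 for Eomes and 33.1 for Krt18. Cdx2 (3.32), Hand1 (2.10) and Gata3 (1.87) were near the lower limit of the table. These last genes passed the filter, which asked for 10 or more in 2 or more libraries, through few libraries: 5 for Cdx2, 5 for Hand1 and 7 for Gata3. Gata3 was listed at 0 in 1 library and Hand1 in 2.

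**Figure D1:**
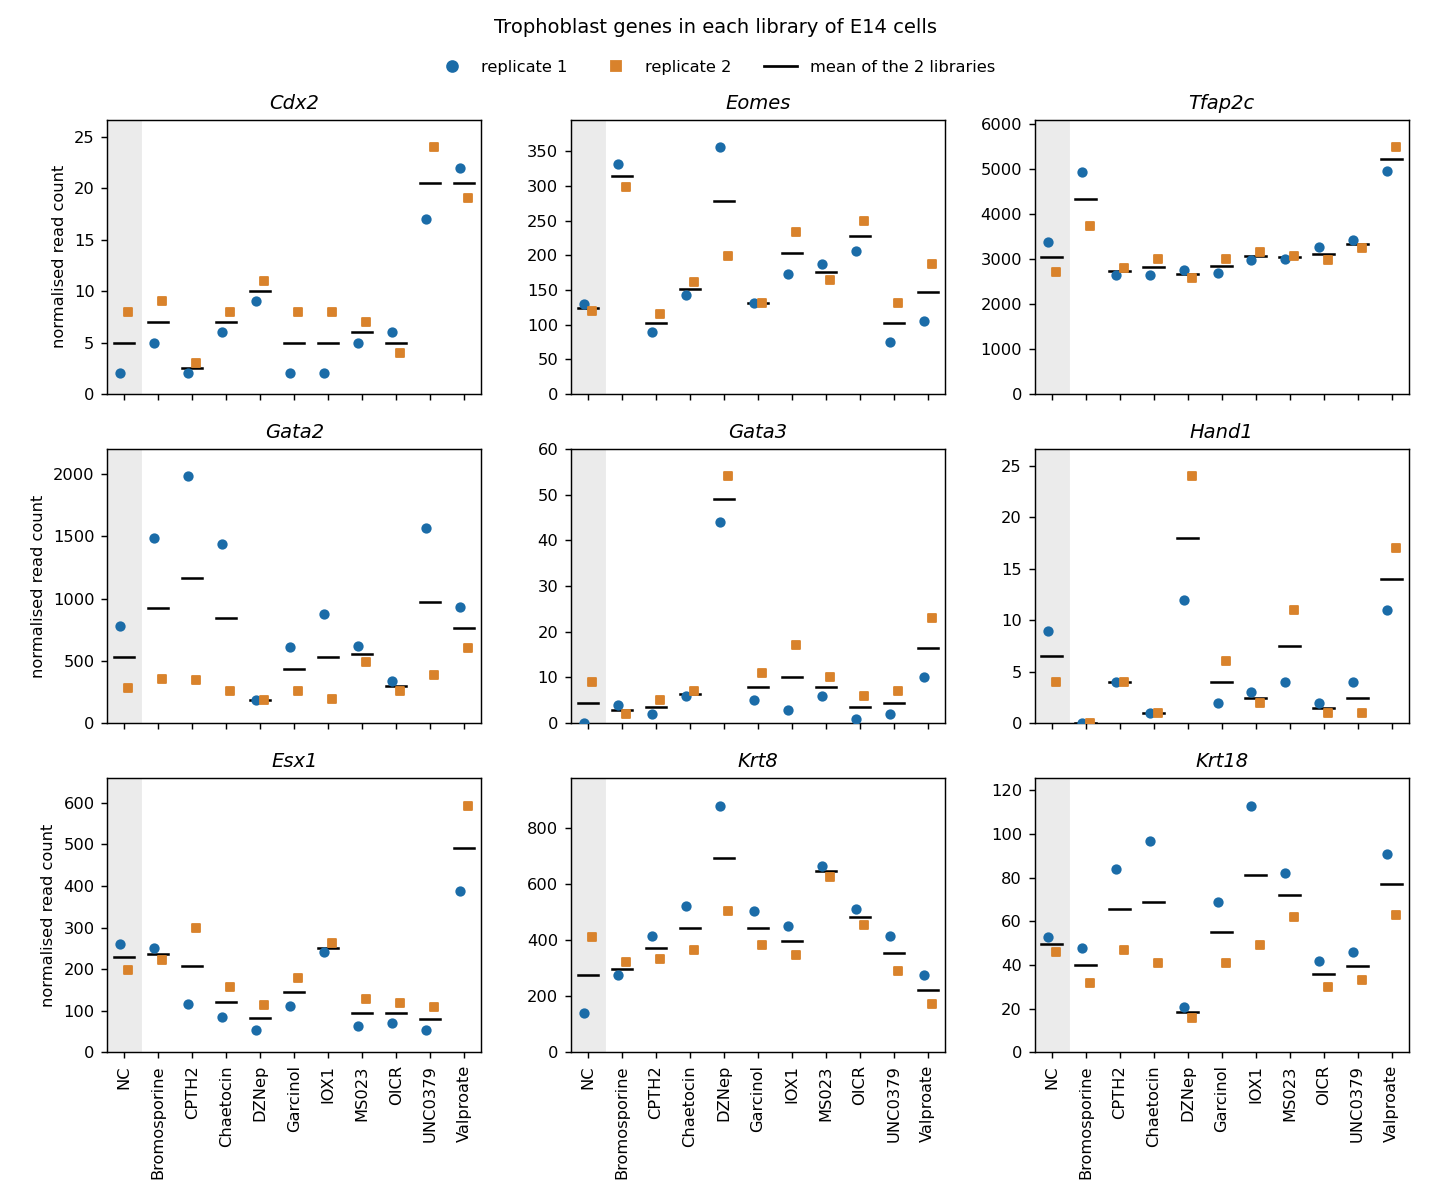
Normalised read counts of the 9 trophoblast genes (vertical axes, linear, each from 0) in the 2 libraries of NC (grey band) and of each of the 10 compounds (horizontal axis). Blue circles are replicate 1, orange squares are replicate 2 and black bars are the means of the 2 libraries. Gata3 is highest with DZNep (44 and 54), Tfap2c and Esx1 are highest with Valproate, and the circles of Gata2 lie above the squares in all 11 groups.

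Against NC, 2 of the 9 genes were called with Bromosporine, where Eomes was higher and Hand1 lower, and 3 with DZNep, where Eomes, Gata3 and Krt8 were higher. With the other 8 compounds the count was 0. The background was 3.34% of the 17275 genes for Bromosporine (0.573% higher, 2.77% lower) and 11.4% for DZNep (5.27% higher, 6.14% lower). The median log2 difference of the 9 genes was 1.08 with DZNep, beside -0.04 over all genes tested, and 0.31 with Bromosporine, beside 0.01. With DZNep 5 of the 9 differences were positive, and Esx1 (-1.52), Krt18 (-1.38), Gata2 (-1.32) and Tfap2c (-0.19) were negative. The DZNep median is the value of Cdx2, a low gene (9 and 11, against 2 and 8 in NC) that was not called. With Bromosporine 7 were positive. All 10 comparisons share the same NC libraries.

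Among the compounds with no call, 5.28% of all genes were called with Valproate (2.73% higher, 2.55% lower). With Valproate 8 of the 9 trophoblast genes had a positive log2 difference, with a median of 0.78 beside -0.02 over all genes. With MS023 8 of the 9 were positive too, with a median of 0.42 beside -0.01. The share of all genes with a positive difference was not counted. At an unadjusted p under 0.05 there were 3 of the 9 with Valproate, 3 with OICR, 2 with MS023, 2 with UNC0379, 1 with Chaetocin and 0 with CPTH2, Garcinol and IOX1 (limma). Over all genes the share at this threshold was 24.1% for Valproate, 10.7% for OICR, 15% for MS023, 6.08% for UNC0379, 4.72% for Chaetocin, 0.944% for CPTH2, 3.62% for Garcinol and 12.4% for IOX1, and it was 35.4% for DZNep and 19% for Bromosporine. The background of calls over all genes was 0.973% for MS023, 0.388% for OICR, 0.116% for IOX1, 0.0174% for Chaetocin, 0.00579% for CPTH2, 0.00579% for Garcinol and 0% for UNC0379. With most of these compounds hardly any gene of the whole table was called, so that 0 of 9 was also the background.

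**Figure D2:**
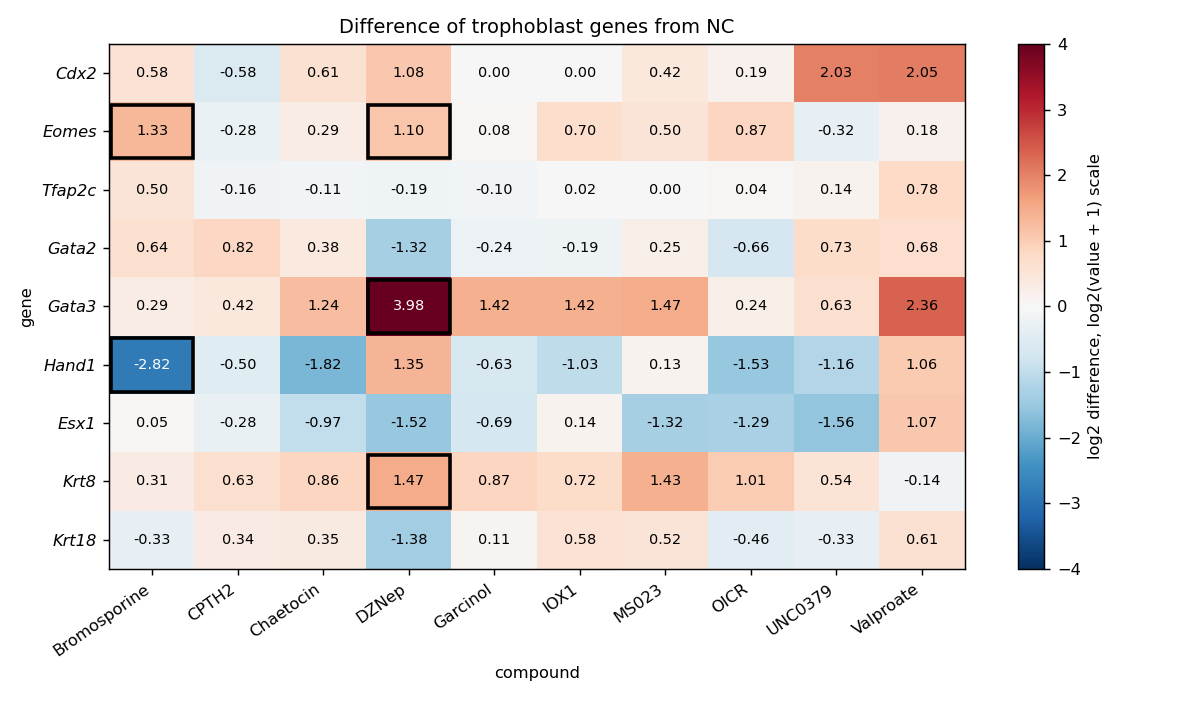
Log2 difference of each gene (rows) between each compound (columns) and NC, on the log2(value + 1) scale, from blue (lower) through white (0) to red (higher), with the number in each cell. Black frames mark the calls, which are Eomes with Bromosporine and DZNep, Hand1 with Bromosporine, and Gata3 and Krt8 with DZNep. The size shown for Hand1 with Bromosporine, where both libraries are listed at 0, depends on the pseudocount.

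Eomes, a T-box factor needed for the trophoblast and later for mesoderm, was higher with Bromosporine and with DZNep. Its normalised count was 129 and 119 in the NC libraries (124 ± 7.07, SD, n = 2), 331 and 298 with Bromosporine (314.5 ± 23.3, n = 2) and 356 and 199 with DZNep (277.5 ± 111, n = 2). Both Bromosporine libraries and both DZNep libraries lay above both NC libraries, and the DZNep libraries were far apart. The log2 difference was 1.33 ± 0.33 (SE) for Bromosporine (limma adjusted p = 0.0323) and 1.10 ± 0.33 for DZNep (adjusted p = 0.0270). Set against the NC library of the same number, it was 1.35 and 1.32 for Bromosporine and 1.46 and 0.74 for DZNep. With Chaetocin, Garcinol, IOX1, MS023 and OICR both libraries also lay above both NC libraries without passing the test, the largest differences being those of OICR (206 and 249) and IOX1 (173 and 234) (log2 differences 0.87 and 0.70, limma adjusted p = 0.331 and 0.412). The lowest values were with UNC0379 (75 and 131) and CPTH2 (90 and 116), and those of UNC0379 overlapped those of NC. Eomes lies on chr9:118478212-118486132 on the plus strand (mm10), and an annotated transcript of Gm33460 overlaps its exons on the opposite strand.

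Gata3, a zinc finger factor that acts beside Cdx2 in the trophectoderm, was a rare transcript that rose with DZNep. It was listed at 0 and 9 in the NC libraries and at 44 and 54 with DZNep (49 ± 7.07, SD, n = 2). The DZNep libraries were the 2 highest of all 22, and the next was a Valproate library at 23. The log2 difference for DZNep was 3.98 ± 1.06 (SE, limma adjusted p = 0.0147). Within replicate numbers it was 5.49 and 2.46, the first of these against the NC library listed at 0, so that its size depends on the pseudocount. With Valproate the values were 10 and 23, both above NC, with a log2 difference of 2.36 ± 1.06 (adjusted p = 0.189). Values with the other 8 compounds lay between 1 and 17 and overlapped NC. Gata3 spans chr2:9857078-9890034 on the minus strand, where exons of Gm13256 overlap it on the opposite strand and those of 9230102O04Rik on the same strand.

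Gata2, its paralogue, which activates trophoblast giant cell genes and also serves in blood formation, varied most between the 2 libraries of a group (pooled SD of 1.17 on the log2 scale). Its normalised count was 782 and 280 in NC and reached 1982 and 344 with CPTH2. It was lowest with DZNep (189 and 186), below both NC libraries, with a log2 difference of -1.32 ± 1.06 (SE, limma adjusted p = 0.401), the smallest adjusted p of its 10 comparisons. Groups next to each other in the order of means overlapped in 9 of 10 pairs, the exception being OICR (342 and 257) over DZNep. Gata2 lies on chr6:88193891-88207032 on the plus strand.

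Cdx2, the homeobox factor that sets up the trophectoderm, stayed at 24 or below in all libraries. It was listed at 2 and 8 in NC, at 22 and 19 with Valproate and at 17 and 24 with UNC0379. These 4 libraries were the highest of the 22, and DZNep followed with 9 and 11. The log2 difference was 2.05 ± 0.71 (SE) for Valproate and 2.03 ± 0.71 for UNC0379, and neither passed the test (limma adjusted p = 0.0868 and 0.690). With the other 7 compounds the libraries lay between 2 and 9. Cdx2 is on chr5:147300805-147307270 on the minus strand.

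Tfap2c, an AP-2 factor of trophoblast stem cells that germ cells and the naive pluripotent state also use, was the most abundant of the 9 genes and varied least between the 2 libraries of a group (pooled SD of 0.13 on the log2 scale). Its normalised count was 3379 and 2712 in NC (3045.5 ± 472, SD, n = 2), 4958 and 5480 with Valproate (5219 ± 369) and 4930 and 3721 with Bromosporine (4325.5 ± 855). In the other 8 groups all libraries lay between 2576 and 3415. Both Valproate libraries lay above all libraries of every other group, and both Bromosporine libraries lay above all libraries of the groups left. The log2 difference was 0.78 ± 0.14 (SE, limma adjusted p = 0.00296) for Valproate and 0.50 ± 0.14 (adjusted p = 0.0498) for Bromosporine, both under a 2-fold change and so not called. Tfap2c is on chr2:172549593-172558622 on the plus strand.

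Hand1, a bHLH factor needed for giant cells, was listed at 0 in both Bromosporine libraries. In NC its values were 9 and 4, and the test called it lower with Bromosporine (limma adjusted p = 0.0411). This call was lost with a pseudocount of 10 (limma adjusted p = 0.213). It was also lost when p-values were adjusted over all 10 comparisons together (limma adjusted p = 0.0580). It was kept without the filter, with the replicate number in the fit, after rescaling and with the other groups as reference. No fold change is given, since the counting or the normalization can also leave a gene at 0. Chaetocin (1 and 1), OICR (2 and 1) and IOX1 (3 and 2) were also below both NC libraries without passing the test. DZNep (12 and 24) and Valproate (11 and 17) were above them, with log2 differences of 1.35 ± 0.73 (SE) and 1.06 ± 0.73 (limma adjusted p = 0.200 and 0.407). Hand1 is on chr11:57828705-57832818 on the minus strand.

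Esx1, the X-linked homeobox gene of the labyrinth, was high with Valproate and low with several compounds, and no single comparison with NC passed in the fit without the replicate number. Its normalised count was 261 and 199 in NC (230 ± 43.8, SD, n = 2) and 387 and 593 with Valproate (490 ± 146). With UNC0379 (53 and 110), DZNep (55 and 113), MS023 (64 and 128) and OICR (71 and 120) both libraries lay below both NC libraries, and so did those with Chaetocin (85 and 158) and Garcinol (111 and 178). The log2 differences of the first 4 lay between -1.56 ± 0.54 (SE) for UNC0379 and -1.29 ± 0.54 for OICR. The smallest adjusted p was 0.0559, for DZNep at -1.52 ± 0.54 (limma). For Valproate the difference was 1.07 ± 0.54 (limma adjusted p = 0.247), with both libraries above all others. Esx1 is on chrX:137115397-137122083 on the minus strand.

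Krt8 and Krt18 encode the keratins that pair to form the filaments of simple epithelia, and with DZNep they stood on opposite sides of NC. The normalised count of Krt8 was 140 and 411 in NC (275.5 ± 192, SD, n = 2) and 881 and 504 with DZNep (692.5 ± 267). The log2 difference was 1.47 ± 0.42 (SE, limma adjusted p = 0.0213), and within replicate numbers it was 2.65 and 0.29. The NC libraries were as a ratio further apart than those of any other group, and without NC replicate 1 the difference was 0.70 and not called. Krt8 was also high with MS023 (666 and 627), with a log2 difference of 1.43 ± 0.42 (limma adjusted p = 0.113), and was lowest on average with Valproate (275 and 172). Krt18 was 53 and 46 in NC (49.5 ± 4.95) and 21 and 16 with DZNep (18.5 ± 3.54), the lowest 2 of the 22 libraries. Its log2 difference was -1.38 ± 0.49 (limma adjusted p = 0.0567), just outside the threshold. The highest mean was with IOX1 (113 and 49). The genes are neighbours, Krt8 at chr15:101996698-102004482 on the minus strand and Krt18 at chr15:102028180-102032027 on the plus strand. Of the 31-base stretches of their transcripts, 36.0% (Krt8) and 11.4% (Krt18) also occur in other genes, among them Krt8-ps and Gm5200, so their counts may hold reads of such copies.

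The calls with both compounds were often lost when 1 library was left out, which leaves 1 library in a group and weakens the test. With DZNep some log2 differences also fell under a 2-fold change (Krt8 at 0.70 without NC replicate 1, Eomes at 0.68 without DZNep replicate 1). The cause of the losses was not tested. In these fits the log2 difference of Eomes with Bromosporine stayed between 1.26 and 1.41. With DZNep the differences ranged more, from 0.7 to 1.5 for Eomes, 0.7 to 2.2 for Krt8 and 2.3 to 5.6 for Gata3. With Bromosporine, 0 of the 9 genes were called after leaving out any 1 of the 4 libraries of the comparison. With DZNep, 0 were called without NC replicate 1, 0 without DZNep replicate 1, 2 without NC replicate 2 (Gata3 and Krt8) and 3 without DZNep replicate 2. These last 3 were Eomes, Krt8 and, called lower, Esx1 (log2 difference -2.03, limma adjusted p = 0.0373), while Gata3 lost its call (3.83, limma adjusted p = 0.0590). Without DZNep replicate 1, Gata3 was at 4.12 (limma adjusted p = 0.0503). No direction of a called gene turned in these fits.

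A test over all 11 groups, added after the values were seen, asked whether a gene varied at all between groups. It passed for 4 of the 9 genes, beside 29.7% of all genes tested: Tfap2c (limma F test, adjusted p = 0.00211), Hand1 (0.0131), Eomes (0.0143) and Esx1 (0.0200). Krt8 (adjusted p = 0.0856), Krt18 (0.0874), Cdx2 (0.102), Gata3 (0.150) and Gata2 (0.723) did not pass (limma F test). The group means of Esx1 spanned a ratio of 6.01, from 81.5 with UNC0379 to 490 with Valproate, those of Eomes 3.05 and those of Tfap2c 1.96. In the order of means, the libraries of neighbouring groups overlapped in 7 of 10 pairs for Eomes and Tfap2c, in 8 for Cdx2 and in 9 for each of the other 6 genes. The count for Cdx2 depends on the order of NC, Garcinol, IOX1 and OICR, which tie at a mean of 5. Its pair of OICR over CPTH2 arises only with OICR placed last of these. The order of Bromosporine and Chaetocin, tied at 7, also matters for Cdx2. The counts for Eomes (CPTH2 and UNC0379 tied at 103) and Hand1 (CPTH2 and Garcinol tied at 4) depend on ties too. For Eomes, the pair of NC over CPTH2 arises only with CPTH2 placed before UNC0379. Over all 17275 genes the median was 1 pair that did not overlap, with 28.9% of genes at 2 or more and 11.8% at 3 or more, so that 1 such pair was the usual number.

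Libraries with the same replicate number shared a shift in several of these genes. Gata2 was lower in the library numbered 2 in 11 of 11 groups, with means of 984 over the libraries numbered 1 and 328 over those numbered 2. The log2 difference of number 2 from number 1 was -1.40 ± 0.25 (SE, limma adjusted p = 0.000496), larger than the difference of any compound from NC in that gene. Krt18 was also lower in 11 of 11 groups (-0.63 ± 0.11, adjusted p = 0.000463 by limma, under a 2-fold change). Gata3 was higher in number 2 in 10 of 11 groups (1.11 ± 0.34, limma adjusted p = 0.0144) and Esx1 in 9 of 11 (0.62 ± 0.15, limma adjusted p = 0.00413, under 2-fold). So 2 of the 9 genes were called between replicate numbers, beside 4.04% of all genes. For Cdx2, Eomes, Tfap2c, Hand1 and Krt8 the adjusted p lay between 0.0590 and 0.886 (limma). The labels do not say what the numbers stand for.

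**Figure D3:**
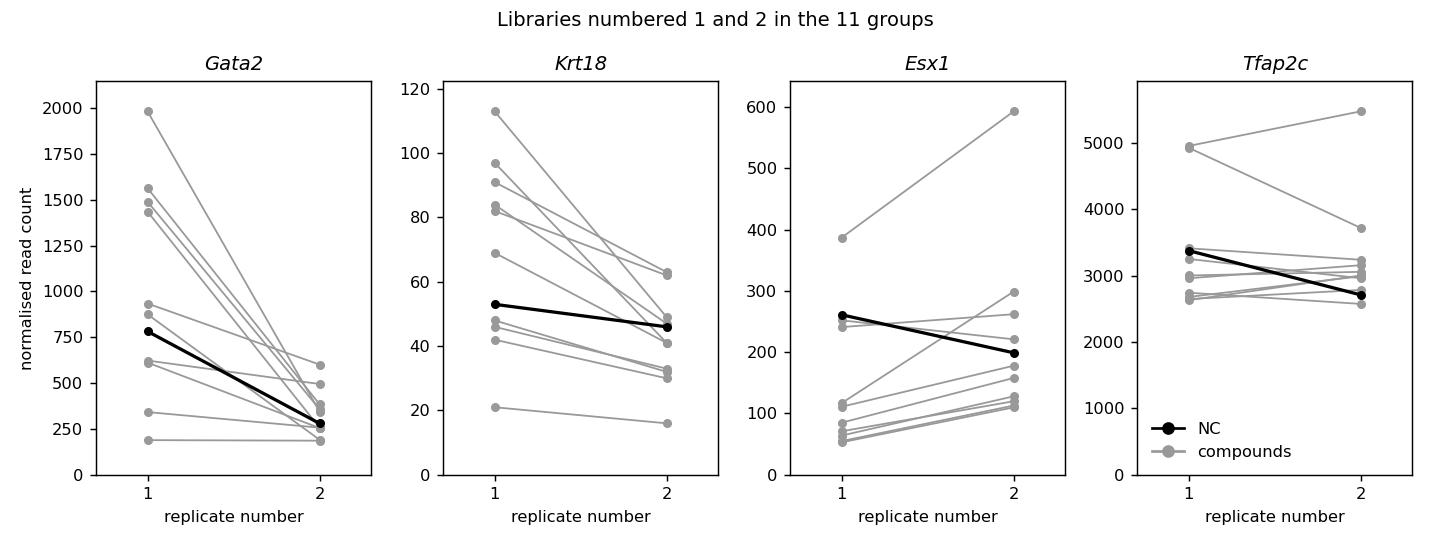
Normalised read counts of 4 trophoblast genes (vertical axes, linear, from 0) in the libraries numbered 1 and 2 (horizontal axis), with a line joining the 2 libraries of each group, black for NC and grey for the 10 compounds. Gata2 and Krt18 fall on every line, Esx1 climbs on 9 of 11, and Tfap2c has no common direction.

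Of other genes of the trophoblast programme, 57 were listed in 3 groups and 48 were tested. With DZNep 8 of the 48 (16.7%) were called higher and 1 (2.08%) lower, and with Valproate 8 (16.7%) higher and 0 lower. With Bromosporine 2 were called in each direction (4.17% each), and with the other 7 compounds 0. At an unadjusted p under 0.05 these 7 had between 0 (CPTH2) and 7 (MS023) of the 48 genes (limma). The median log2 difference of the 48 genes was 0.01 with DZNep, 0.31 with Valproate and 0.05 with Bromosporine. Over all genes tested, 5.27% were called higher with DZNep and 2.73% with Valproate. The lists were chosen with earlier results of these data known, so these shares are a description and no test of the lists. The Valproate calls include Bmp8b, which passed the filter on low values only through the Valproate libraries.

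In the list of trophectoderm and trophoblast stem cell genes, all 20 were tested, and 4 were higher and 1 was lower with DZNep. Krt19, a further keratin of simple epithelia, went from 6 and 9 in NC to 320 and 85 (log2 difference 4.31 ± 0.83, SE, limma adjusted p = 0.00219). Plet1, a surface protein of trophoblast progenitors, went from 225 and 200 to 696 and 731, and Id2, a bHLH inhibitor, from 39 and 63 to 147 and 147. Tead4, the factor upstream of Cdx2 and Gata3, went down from 1793 and 1699 to 883 and 817 (-1.04 ± 0.14, limma adjusted p = 0.000168). The fifth called gene was Lcp1, an actin-bundling protein, higher by 1.09 ± 0.32 on the log2 scale (limma adjusted p = 0.0233). Plet1 and Lcp1 were the 2 genes of this list that were lower with Bromosporine, Plet1 at 83 and 132 (-1.01 ± 0.24, limma adjusted p = 0.0274) and Lcp1 from 360 and 206 to 85 and 74 (-1.77 ± 0.32, adjusted p = 0.00591). An annotated transcript of Plet1os overlaps Plet1 on the opposite strand, and 24.2% of the 31-base stretches of Lcp1 occur in other genes.

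With Valproate, 5 of the 20 were higher and 0 were lower. Rhox6, an X-linked homeobox gene of the placenta, went from 162 and 64 in NC to 949 and 789 (log2 difference 3.07 ± 0.74, SE, limma adjusted p = 0.0180). Cdh3, the placental cadherin, went from 231 and 195 to 1569 and 1263 (2.72 ± 0.49, limma adjusted p = 0.00373), and Wnt7b, a ligand of placental development, from 101 and 89 to 346 and 340. Id2 (111 and 136) and Bmp8b were the others, Bmp8b being named after its values were seen. Bmp8b was 1 and 2 in NC and 15 and 14 with Valproate, and no library of another group exceeded 8, so it passed the filter on low values only through the group in which it was called. Rhox6 shares 23.3% of its 31-base stretches with Rhox9, so reads may be split between these copies.

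Of the 19 genes of placental differentiation, 15 were in the table and 10 were tested. With DZNep, 3 of the 10 were higher. Cdkn1c, an imprinted inhibitor of the cell cycle, went from 56 and 82 in NC to 354 and 456 (log2 difference 2.55 ± 0.30, SE, limma adjusted p = 7.16e-05). Peg10, an imprinted gene needed for the placenta, went from 225 and 261 to 1024 and 534, and Ascl2, a bHLH factor of the spongiotrophoblast, from 48 and 41 to 193 and 148. With Valproate, Peg10 was the only call among the 10 (597 and 815, 1.52 ± 0.31, limma adjusted p = 0.00767). With Bromosporine 0 of 10 were called by limma and 2 had an unadjusted p under 0.05. Exons of Gm44732 overlap Cdkn1c on the opposite strand.

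The list of upstream signals and co-factors held 18 genes, all tested. Amot, which holds YAP out of the nucleus, was 47 and 59 in NC, 121 and 108 with Bromosporine (log2 difference 1.10 ± 0.30, SE, limma adjusted p = 0.0475) and 180 and 168 with Valproate (1.70 ± 0.30, limma adjusted p = 0.00299). With DZNep it was 60 and 46. Bmp4, a ligand used to drive embryonic stem cells towards trophoblast, is named here after its values were seen and was low in NC at 8 and 9. It was called higher with Bromosporine (69 and 99), DZNep (76 and 38) and Valproate (59 and 29). No other gene of this list was called with any compound, Tead1, Tead2, Tead3, Lats1, Lats2 and Yap1 among them. Tead4, lower with DZNep, stands in another list. At an unadjusted p under 0.05 (limma) there were 6 of the 18 with each of Bromosporine, DZNep and Valproate. Over all genes the share was 19%, 35.4% and 24.1%.

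**Figure D4:**
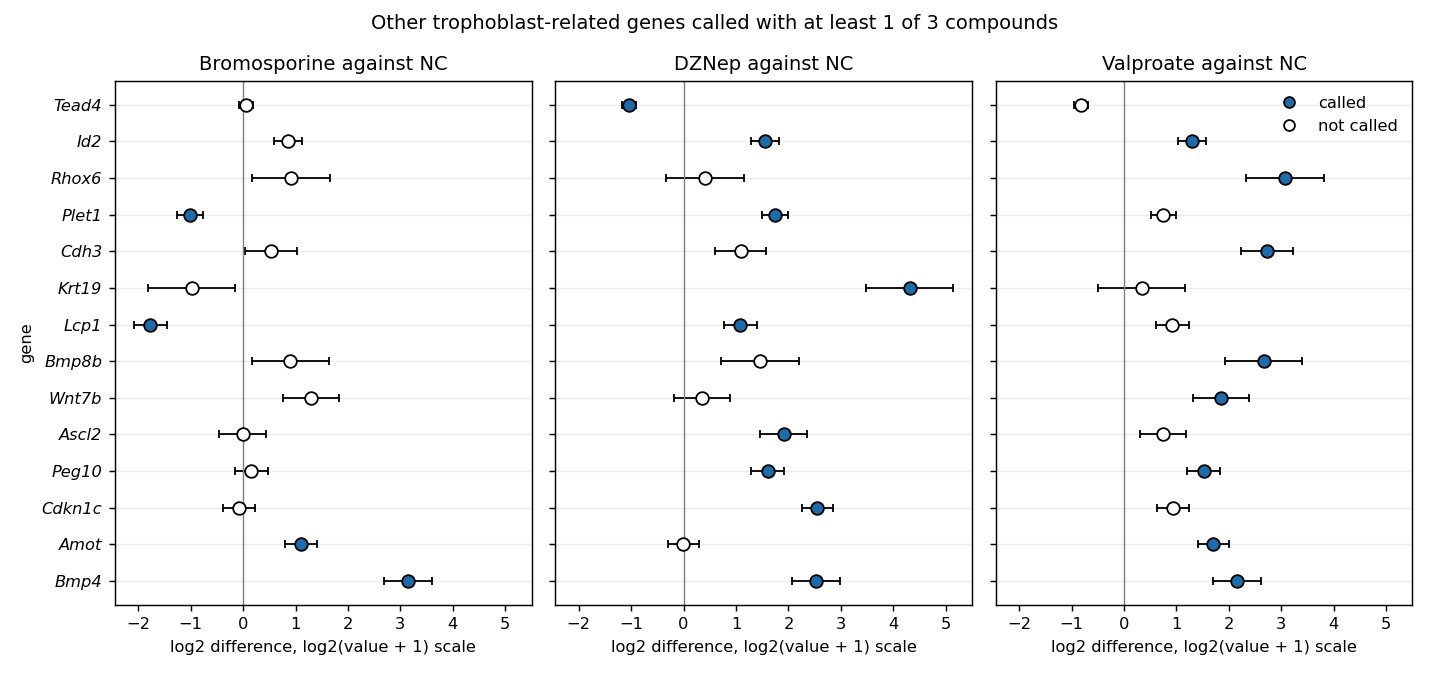
Log2 difference from NC (horizontal axis, log2(value + 1) scale, points with bars of 1 SE) of the listed trophoblast-related genes called with at least 1 of the 3 compounds, in panels for Bromosporine, DZNep and Valproate. Filled points are calls. Krt19 has the largest difference with DZNep (4.31) and Rhox6 with Valproate (3.07), while Plet1 and Lcp1 lie below 0 with Bromosporine and above it with DZNep.

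In the DZNep comparison, the 8 higher and 1 lower calls of these listed genes became 7 and 4 without NC replicate 2, 7 and 4 without DZNep replicate 1, 8 and 3 without DZNep replicate 2 and 8 and 0 without NC replicate 1. In the Bromosporine comparison, 1 of these listed genes was called without NC replicate 1 and 2 without Bromosporine replicate 1, in place of 4. In the Valproate comparison, fewer than 8 were called whichever NC or Valproate library was left out. Without Valproate replicate 1, and without Valproate replicate 2, not all of the calls were higher.

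Markers of other cell types also moved with DZNep and Valproate. Of 8 tested markers of primitive endoderm, Pdgfra and Dab2 were higher and Gata4 lower with DZNep, and Pdgfra was higher with Valproate. The summed normalised count of the list was 5882 and 9277 in NC, 4994 and 7007 with DZNep and 8114 and 12710 with Valproate. Most of this sum is Lama1 (median of 6166 over the libraries), and the median log2 difference of the 8 markers was 1.29 with DZNep and 1.02 with Valproate. Of 7 tested fibroblast markers, Col1a1 (24 and 24 in NC, 327 and 228) and Thy1 were higher with DZNep, Thy1 (12 and 11 in NC, 358 and 303) and Lum were called higher with Valproate, and Col1a1 was lower with Bromosporine (7 and 6). Lum was 197 and 331 with Valproate and 346 in a single CPTH2 library, so its passing the filter rested on the Valproate libraries. Their sum was 600 and 1476 in NC, 1819 and 2094 with DZNep, 1536 and 1685 with Valproate and 692 and 743 with Bromosporine. Of the 8 listed fibroblast markers, Dcn was listed at 0 in all 22 libraries, Lum in 19, Postn in 12 and Col1a2 in 4. Col1a1, Col3a1 (median of 411), Thy1 and Twist1 were listed at 0 in no library. Of 6 markers of primitive streak and mesoderm, where Eomes is also used, 0 were called with any compound (limma, with 3 at an unadjusted p under 0.05 for DZNep and 1 for Bromosporine), and the sum of the 8 listed genes in the table was 1183 and 1397 in NC, 904 and 1071 with Bromosporine and 993 and 1416 with DZNep. Of 6 neural markers, Sox1 was lower with DZNep, MS023 and Valproate and Nes with DZNep. Of 6 germ cell markers, where Tfap2c is also used, Dppa3 was higher with Valproate (194 and 160 in NC, 3544 and 2894) and Dnd1 lower with DZNep. The pluripotency sum was 240917 and 248087 in NC, 296802 and 307233 with DZNep, 271848 and 277227 with Valproate and 256752 and 271589 with Bromosporine. Nanog alone lay between 31970 and 123367 over the 22 libraries. Of the 10 pluripotency markers, Utf1 was called higher with Bromosporine, DZNep, OICR and Valproate and Zfp42 with DZNep. None of the 10 was called lower with any compound. The part of other cell types in the trophoblast values was not tested.

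Over the 11 group means, the genes whose pattern was most like that of a member were sought among 12588 genes, for the 5 members with a mean of at least 100. For Eomes they were Rhog (Pearson r = 0.901), Trmt2a (0.896) and Ticam1 (0.891), for Tfap2c Tmem50b (0.965), Gm21685 (0.961) and Stk4 (0.961), and for Esx1 Rab6a (0.918), 1700025G04Rik (0.911) and Cdca7l (0.905). For Krt8 they were Ap1m2 (0.930), Mrps17 (0.925) and Polr2g (0.908), and for Gata2 Kcnn1 (0.937), Dusp1 (0.918) and Rras (0.917). None of these 5 stood on another's list, and the other 4 were below the mean that the search asked for. Between members, r over the 11 group means ran from -0.793 for Krt8 and Esx1 to 0.689 for Hand1 and Gata3, and it was -0.358 for Krt8 and Krt18. These values describe 11 points that share libraries and a normalization, and carry no test.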

How the data were processed

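Per the labels, libraries were built from oligo-dT-enriched RNA with random-hexamer priming, a step that does not mark the strand, and the submitters' processing notes name bcl2fastq, Bowtie2 2.2.5, RSEM and mm10. The methods of the study describe knockdowns and are taken to cover the compounds too. By them the authors counted reads per gene and applied full-quantile normalization in EDASeq, and the deposited values, rounded to whole numbers, are scores here and not raw counts. All 22 value columns matched a sample title. Depth per library is not known, so no counting interval is given. The full setting removes changes shared by most genes.

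Genes that reached 10 in 2 or more libraries (17275 of 18487) entered a limma 3.58.1 fit of log2(value + 1) under R 4.3.3 (lmFit, eBayes with a trend). The model had 11 group means over all 22 libraries and 11 residual degrees of freedom. P-values are two-sided and Benjamini-Hochberg adjusted within each of the 10 comparisons with NC. Calls needed an adjusted p under 0.05 and more than a 2-fold change. The fit was tested on simulated data. The trophoblast genes and all lists were chosen with earlier results of these data known. All 10 trophoblast genes are named whatever their values. From each list and comparison, the rule named at most 4 called genes with a larger group mean of at least 100. These were the genes with the largest difference. Other called genes are named too, after their values were seen. Among them are Bmp8b, Bmp4, Tead4 with DZNep, Thy1 with DZNep, Pdgfra with Valproate and Col1a1 with Bromosporine. Likeness is Pearson's r over the 11 group means of log2(value + 1).

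Positions and exon overlaps are from GENCODE M21 (mm10), promoter windows from RefSeq. Shared sequence is the percentage of 31-base stretches of the longest transcript found in other genes. Alternatives were a pseudocount of 10, no filter, the replicate number as a block, median-ratio rescaling, the mean of the other 10 groups as reference, adjustment over all 10 contrasts, a fit restricted to the libraries of NC and the compound, and each library left out. Python 3.11.15, pandas 2.3.3 and matplotlib 3.10.9 were used for sequences and plots.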

Additional observations from a re-analysis of the deposited data

How the results depend on the processing

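With 2 libraries per group and no known depth, the counts of called trophoblast genes moved easily. Directions were followed only for gene and compound pairs at an unadjusted p under 0.05 in the main fit (limma). Of these pairs 0 reversed, and the other pairs were not followed. With a pseudocount of 10, the count went from 2 to 1 with Bromosporine, where Hand1 lost its call, and from 0 to 1 with Valproate. The other listed genes went from 4 to 2 with Bromosporine. In fits of only the compound and NC libraries, with 2 residual degrees of freedom, 0 of the 9 genes were called with Bromosporine and 0 with DZNep, and 0 other listed genes with Bromosporine, DZNep or Valproate. Adjustment over all 10 contrasts gave 1 of the 9 with Bromosporine and 0 with DZNep, and 2 other listed genes with IOX1 and 1 with OICR. With the mean of the other 10 groups as reference, 3 of the 9 were called with Valproate (Cdx2, Hand1 and Esx1). With DZNep the 3 called genes were then Gata3, Hand1 and, lower, Krt18 (-1.52), since Eomes (0.76) and Krt8 (0.85) were short of 2-fold, and this reference called 2 other listed genes with IOX1 and 3 with MS023. With 1 library left out, the 9 genes gave 0 to 0 calls with Bromosporine, 0 to 3 with DZNep, 0 to 1 with MS023 and 0 to 1 with Valproate (1 without NC replicate 2 in both). The other listed genes gave 1 to 3 with Bromosporine, 8 to 11 with DZNep and 3 to 5 with Valproate. The genes passing the test over 11 groups numbered 3 to 6. Leaving out the filter and median-ratio rescaling (factors of 0.971 to 1.04) changed none of these counts by over 1.5 times. The cause of these shifts was not tested.

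Deviations of same-numbered libraries from their group means correlated by 0.0535 to 0.298 over 55 pairs of groups, and the labels do not say that a number marks a shared day or culture. With the replicate number as a block, 5 of the 9 genes were called with DZNep (Krt18 and Esx1 also lower), 3 with Valproate (Cdx2, Gata3 and Esx1) and 2 with MS023 (Krt8 and Esx1). The adjusted p of Esx1 was then 0.00463 with DZNep, 0.0353 with MS023 and 0.0428 with Valproate (limma). Of the other listed genes 2 were called with IOX1 and 1 with OICR, and 8 of the 9 passed the test over all groups with the block. With Bromosporine the block left the count at 2. Between replicate numbers, 1 gene was called in place of 2 with a pseudocount of 10.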
